A study of Mus musculus with 30 samples.

Results

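The 9 genes Rgs5, Higd1b, Cox4i2, Ndufa4l2, Kcnj8, Abcc9, Cspg4, Gja4 and Kcnmb1 are transcripts typical of pericytes, and they are described here over 6 cell populations sorted from mouse mammary tumours. Among the 14118 genes of the deposited count matrix they were chosen by their known identity and selected on their measured counts, which are high in one of the sorted populations, CAF1. Their levels in CAF1, and every contrast with CAF1 or with CAF2, against which CAF1 stood out, are therefore given as a description with no test. Tests of the 9 genes are given only for endothelial cells against macrophages, on which the choice may bear as well.

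Each of 5 mice of the strain FVB/N-Tg(MMTVPyVT)634Mul/J gave 1 mammary adenocarcinoma of 750 mm3. In this model the polyoma virus middle T antigen is expressed from the MMTV promoter, chiefly in mammary epithelium, and every population studied came from such a tumour. From each tumour, numbered 5, 6, 8, 10 and 11, 6 populations were sorted by flow cytometry and sequenced in bulk, 1 library each. Cancer-associated fibroblasts, the population labelled CAF, were negative for CD45 and CD31 and positive for CD90, and were divided into CAF1 (CD34-) and CAF2 (CD34+). Endothelial cells were CD45- and CD31+. The 3 macrophage populations are called CD206hi, CD206neg and CD206pos, after their CD206 gate. By their labels CD206hi and CD206neg were low in MHC class II and CD206pos was high. No gate used a protein specific to pericytes, so any pericyte in these tumours was sorted, or not, by CD45, CD31, CD90 and CD34 alone.

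Pericytes are the mural cells of capillaries and small venules. They lie within the basement membrane of the endothelium, are recruited there by platelet-derived growth factor signals through the receptor PDGFRB, and regulate vessel tone and stability. In tumours their coverage of vessels is often loose and uneven. The 9 genes fall into 5 kinds: a regulator of G protein signalling (Rgs5), 3 mitochondrial proteins (Higd1b, Cox4i2, Ndufa4l2), the subunits of the vascular ATP-sensitive potassium channel (Kcnj8, Abcc9), a surface proteoglycan (Cspg4), and a gap junction protein and a potassium channel subunit shared with arterial smooth muscle (Gja4, Kcnmb1).

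On the mouse assembly GRCm38.p6, Rgs5 (Entrez gene 19737) spans chromosome 1 from 169655501 to 169695813, Higd1b (75689) chromosome 11 from 102835761 to 102844141, and Cox4i2 (84682) chromosome 2 from 152753916 to 152765039. Ndufa4l2 (407790) lies on chromosome 10 from 127509274 to 127517154, Cspg4 (121021) on chromosome 9 from 56865104 to 56899870, Gja4 (14612) on chromosome 4 from 127311420 to 127314039, and Kcnmb1 (16533) on chromosome 11 from 33962955 to 33973641. Kcnj8 (16523) and Abcc9 (20928) are neighbours on the minus strand of chromosome 6, from 142564837 to 142571614 and from 142587862 to 142702766, with a gap of 16247 bp and 0 annotated genes between them. Reads of 5 of the genes can be shared with overlapping annotated genes, which cannot be told apart because the strand setting of the counting is not given in the sources used here: Higd1b with Eftud2, Cox4i2 with Gm32057 and Bcl2l1, Ndufa4l2 with Shmt2, Abcc9 with 5330439B14Rik, and Kcnmb1 with Kcnip1.

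The promoter table from RefSeq (GRCm38.p6) had entries for 6 of the 9 genes. Shown here, 5′ to 3′ on the strand of the gene, are the 250 bases before the annotated start of 3 of them, as the regions from which a signalling, a channel and a gap junction gene of the set are transcribed. They lie at chr1:169655251-169655500 (plus strand, Rgs5), chr6:142571615-142571864 (minus strand, Kcnj8) and chr4:127314040-127314289 (minus strand, Gja4). Capitals mark matches to CCAAT, to TATATA or to GGGCGG on either strand.
Rgs5: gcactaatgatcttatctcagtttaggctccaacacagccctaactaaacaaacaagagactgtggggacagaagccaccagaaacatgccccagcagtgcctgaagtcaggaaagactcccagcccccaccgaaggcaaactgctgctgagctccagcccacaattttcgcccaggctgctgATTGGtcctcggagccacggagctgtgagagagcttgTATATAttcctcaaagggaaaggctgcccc
Kcnj8: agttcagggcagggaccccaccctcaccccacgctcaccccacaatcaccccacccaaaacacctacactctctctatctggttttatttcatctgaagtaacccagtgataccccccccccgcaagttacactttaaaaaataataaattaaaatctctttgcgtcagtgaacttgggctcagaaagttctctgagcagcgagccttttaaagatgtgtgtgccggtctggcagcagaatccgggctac
Gja4: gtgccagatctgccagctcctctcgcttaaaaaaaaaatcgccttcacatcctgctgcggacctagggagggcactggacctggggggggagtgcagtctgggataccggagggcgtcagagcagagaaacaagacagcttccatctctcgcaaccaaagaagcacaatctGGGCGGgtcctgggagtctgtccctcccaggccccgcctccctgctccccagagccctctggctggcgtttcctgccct

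The Rgs5 window held TATATA at 30 bases and CCAAT, as ATTGG on this strand, at 67 bases before the start. Gja4 held GGGCGG 79 bases before its start. Of all 32851 promoters of the same length, 5.25% held TATATA, 33.8% CCAAT and 32.7% GGGCGG. The motifs were chosen after the sequences had been seen. The Kcnj8 window held none of the 7 motifs searched on both strands, which were these 3, the CArG box (1.47% of all promoters, 0 of the 6 genes), ACGTG (16.6%, 0 of 6), TGGGAA (21.6%) and CATTCC (12.6%). TGGGAA and CATTCC were found in the window of Abcc9, where they overlap each other, and GGGCGG was found in those of Gja4, Abcc9 and Cspg4. These matches describe letters in a window and show no binding.

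The 30 libraries held 6292411 to 11957076 counts, so that 3 counts, which a gene without any count may reach at 95% confidence, correspond to 0.251 to 0.477 CPM (counts scaled to the library total). Such limits cover counting error only. Labels and markers were checked against each other first. The 10 endothelial markers, Pecam1 among them, summed to 3117.1 to 6875.0 CPM in endothelial libraries, 7.59 to 43.6 CPM in CAF1 and 2.39 to 16.0 CPM in CAF2. The 8 fibroblast markers summed to 51.4 to 658.3 CPM in endothelial libraries, 24811.6 to 107869.7 CPM in CAF1 and 35895.9 to 50061.7 CPM in CAF2. The endothelial library of tumour 8 had the lowest endothelial and the highest fibroblast sum of its group. Luminal epithelial markers, 10 genes, summed to 219.0 to 2622.2 CPM in endothelial libraries, 232.6 to 1872.5 CPM in CAF1 and 9.39 to 479.7 CPM in CAF2, where tumour 6 held the highest. In the CD206neg group, the data columns of tumours 6 and 8 carry names for high MHC class II although their labels say low, and their grouping here follows the labels. In bulk libraries fewer cells of a type and less RNA per cell cannot be told apart.

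Of the 9 genes, 6 had their highest mean in CAF1 and were higher there than in the endothelial library of the same tumour in 5 of 5 tumours, namely Rgs5, Cox4i2, Ndufa4l2, Kcnj8, Cspg4 and Kcnmb1. Higd1b, too, was highest in CAF1 by its mean, but not in tumour 8. Abcc9 and Gja4 had their highest mean in endothelial cells. These orders are of CPM on library totals. They leave out the TMM factors, which were 1.27 to 1.67 in endothelial libraries and 0.691 to 1.48 in CAF1. No macrophage library exceeded 3.69 CPM for any of the 9 except Cspg4, which reached 15.0 CPM there. Values below are in the order of tumours 5, 6, 8, 10 and 11.

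**Figure D1:**
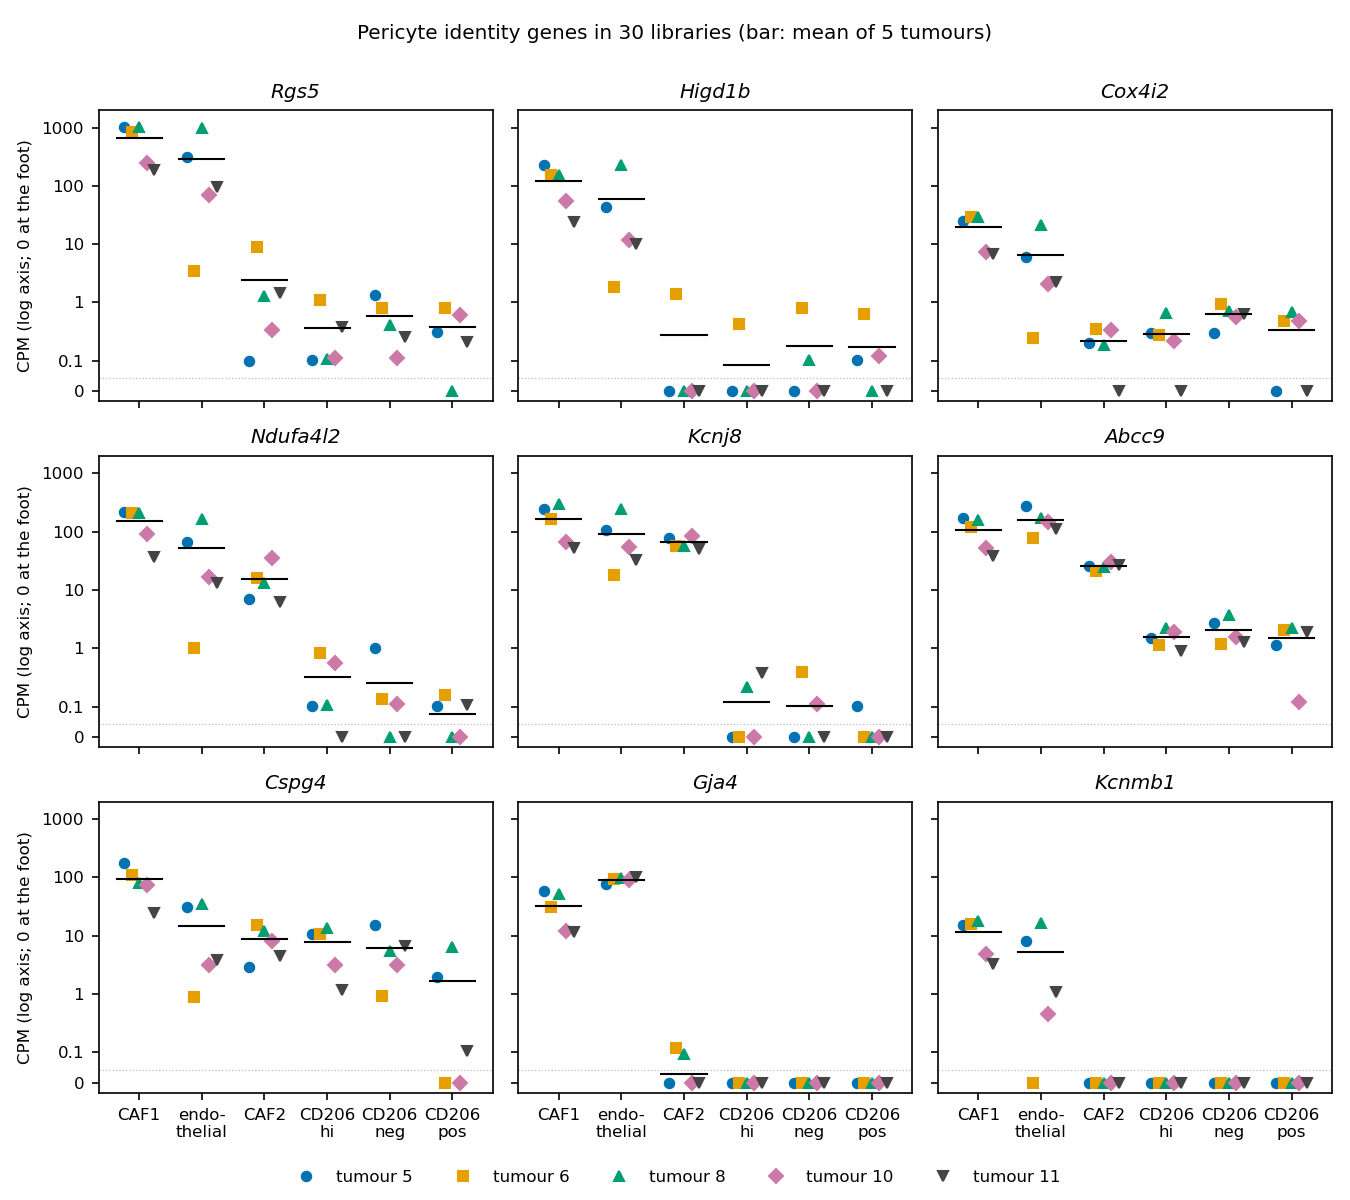
Level of each of the 9 genes in 30 libraries, in CPM on a log axis with 0 at the foot. Each symbol is 1 library, shaped and coloured by tumour, and each bar is the mean of 5 tumours. Rgs5 averaged 660.6 CPM in CAF1, 293.9 CPM in endothelial cells and 2.43 CPM in CAF2, while Gja4 averaged 32.8, 91.8 and 0.0419 CPM in the same groups.

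Rgs5 is a GTPase-activating protein that shortens signalling of G protein-coupled receptors, and it is among the most used markers of pericytes. It stood at 1030.8, 823.8, 1009.2, 251.4 and 187.7 CPM in CAF1, 311.7, 3.49, 991.8, 68.5 and 93.9 CPM in endothelial cells, and 0.0999, 8.99, 1.3, 0.335 and 1.44 CPM in CAF2. The CAF1 and CAF2 libraries did not overlap, whereas endothelial libraries ran from below the highest CAF2 library (tumour 6) to the level of CAF1 (tumour 8). The ratio of the means was 271.5 for CAF1 over CAF2, and the fitted log2 fold change was 8.02 ± 1.01 (SE). Within tumours that had over 3 counts on both sides the ratio lay between 91.6 (tumour 6) and 777.2 (tumour 8, 4 tumours). Across the 15 macrophage libraries Rgs5 had a median of 0.311 CPM and a highest value of 1.32 CPM.

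Relatives of Rgs5 in the R4 family of these regulators, taken from the list of partners, passed in the same direction. Rgs16 (log2 4.24 ± 0.35), Rgs4 (3.07 ± 0.44) and Rgs2 (2.57 ± 0.46) were each higher in CAF1 than in CAF2 (edgeR quasi-likelihood test, Benjamini-Hochberg adjusted p = 1.18e-05, 0.000384 and 0.00167). Per kilobase of exon, Rgs5 made up 65.1 ± 5.48% of the sum of Rgs5 and Rgs4 in CAF1 (SD, n = 5), 64.8 ± 6.94% in endothelial libraries and 5.73 ± 8.65% in CAF2. The mean shares of CAF1 and endothelial libraries differed by less than their SD, and the share was 72.4% in CAF1 and 61.4% in endothelial cells in tumour 6, where the endothelial levels of both genes were lowest. In endothelial cells Rgs16 stood at 276.4, 185.8, 151.6, 79.3 and 159.6 CPM, with tumour 6 second highest where Rgs5 and Rgs4 were lowest.

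The mitochondrial genes encode small proteins of the respiratory chain or its assembly, each a paralogue of a gene that most cells express. Higd1b, a HIG1 domain protein related to Higd1a, stood at 225.8, 152.7, 156.4, 54.5 and 24.1 CPM in CAF1 and at 43.5, 1.87, 231.8, 11.7 and 10.2 CPM in endothelial cells. In CAF2 it had 12 counts in tumour 6 (1.40 CPM) and none in the other 4 libraries. Every CAF1 and endothelial library thus lay above every CAF2 library. For endothelial cells the gap was narrow, since tumour 6 had 15 counts (1.87 CPM) there beside the 12 in CAF2. The endothelial library of tumour 8 was the highest of all 30. The fitted log2 fold change of CAF1 over CAF2 was 8.89 ± 0.87 and rests on the CAF2 library of tumour 6, without which the CAF2 side had no count.

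Cox4i2, the tissue-specific form of subunit IV of cytochrome c oxidase, is known for its role in oxygen sensing in the lung. It stood at 24.6, 29.6, 29.6, 7.31 and 6.73 CPM in CAF1, 5.98, 0.25, 21.7, 2.08 and 2.25 CPM in endothelial cells and 0.200, 0.350, 0.186, 0.335 and 0 CPM in CAF2. All CAF1 libraries were above all CAF2 libraries (log2 6.49 ± 0.58, 11 counts in CAF2 in all), and endothelial cells overlapped with both. In 7 of 15 macrophage libraries it exceeded 3 counts, with at most 0.927 CPM.

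Ndufa4l2, a relative of the cytochrome c oxidase subunit Ndufa4 that is induced by hypoxia, was at 220.0, 208.4, 212.2, 90.4 and 37.3 CPM in CAF1, 67.5, 0.998, 164.8, 16.9 and 13.3 CPM in endothelial cells, and 6.89, 16.1, 13.0, 35.2 and 6.13 CPM in CAF2. Unlike the other mitochondrial genes it was clearly present in CAF2, where tumour 10 held the highest level, close to the lowest CAF1 library. The fitted log2 fold change was 3.32 ± 0.50, and CAF1 exceeded CAF2 by 2.57 times in tumour 10 and 31.9 times in tumour 5.

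The widely expressed relatives of these genes did not pass the test between CAF1 and CAF2: Cox4i1 had a log2 fold change of 0.30 ± 0.24, Ndufa4 of -0.30 ± 0.22 and Higd1a of -0.12 ± 0.18 (edgeR adjusted p = 0.459, 0.391 and 0.705). On the scale of CPM per kilobase of exon, Higd1b made up 80.4 ± 9.45% of its sum with Higd1a in CAF1, 42.5 ± 30.4% in endothelial libraries and 1.18 ± 2.65% in CAF2. Ndufa4l2 made up 55.7 ± 17.4% of its sum with Ndufa4 in CAF1, 19.8 ± 20.3% in endothelial libraries and 9.70 ± 6.08% in CAF2. In both pairs the tissue-restricted form was the more abundant in CAF1 by its mean. The share of Higd1b ran from 68.4% to 88.7% over the CAF1 libraries, with exon lengths of 847 bp for Higd1b and 3040 bp for Higd1a. In CPM, without length, Higd1b was above Higd1a in CAF1 of tumours 5, 6 and 8. It was below in tumours 10 (54.5 against 90.6 CPM) and 11 (24.1 against 32.8 CPM). The share of Ndufa4l2 was 42.0% in tumour 10 and 33.1% in tumour 11, where Ndufa4l2 was the minor form. Cox4i2 remained the minor form. Its share of the sum with Cox4i1 was 7.67 ± 3.39% in CAF1, 2.09 ± 2.48% in endothelial libraries and 0.118 ± 0.0732% in CAF2.

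**Figure D2:**
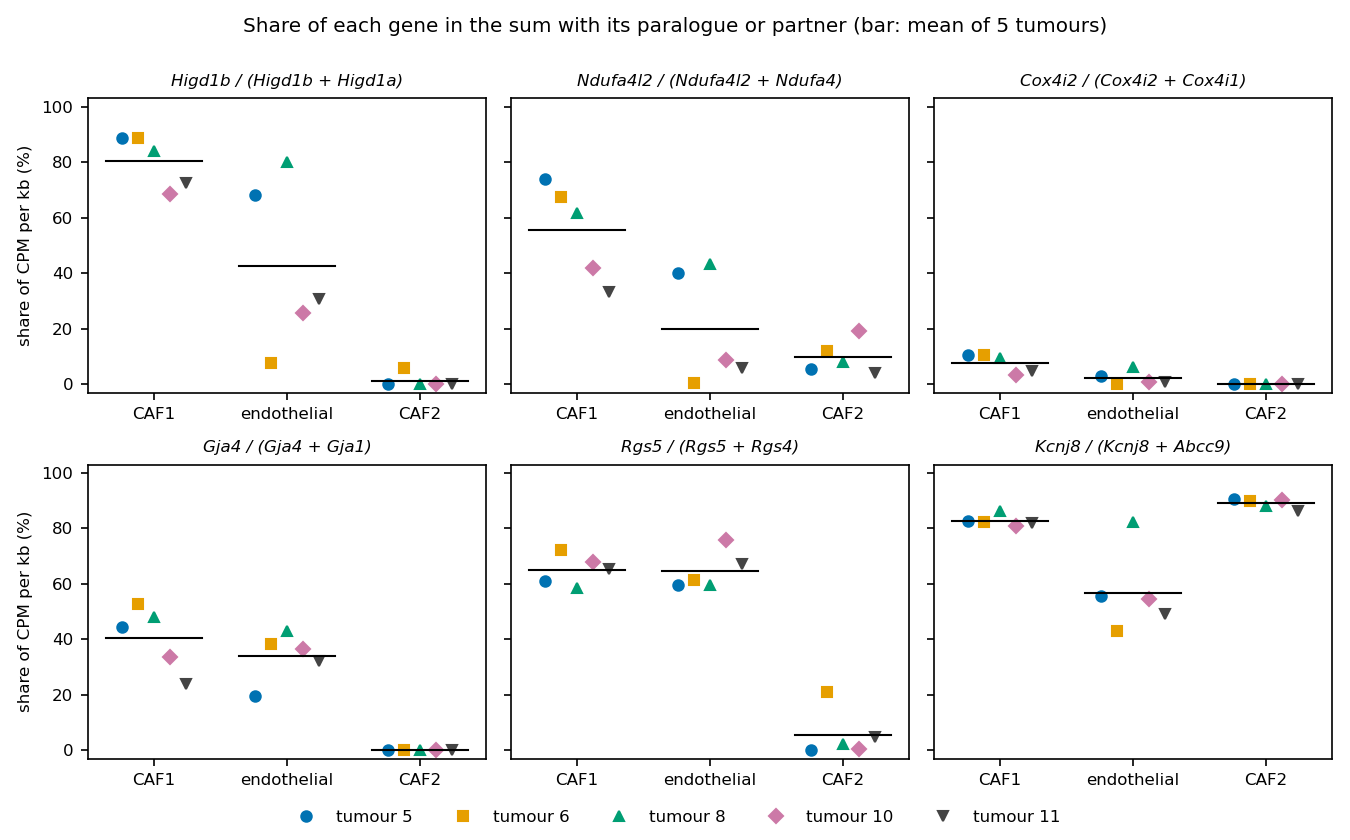
Share of a pericyte identity gene in the sum with its paralogue or partner, in percent of CPM per kilobase of exon, for CAF1, endothelial cells and CAF2. Each symbol is 1 tumour and each bar the mean of 5. The share of Rgs5 averaged 65.1% in CAF1 and 64.8% in endothelial cells, while that of Higd1b averaged 80.4% and 42.5% in the same groups.

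Kcnj8 and Abcc9 encode the pore and the sulphonylurea receptor of the ATP-sensitive potassium channel of vascular mural cells, which opens when cellular ATP falls and relaxes the vessel. Kcnj8 stood at 248.1, 167.7, 300.4, 66.1 and 51.8 CPM in CAF1, 104.6, 18.0, 240.4, 53.8 and 32.4 CPM in endothelial cells, and 77.4, 57.4, 56.3, 85.1 and 51.3 CPM in CAF2. It was the only one of the 9 whose CAF1 and CAF2 libraries overlapped. CAF1 exceeded CAF2 in 4 of 5 tumours, by 5.34 times in tumour 8 and 1.01 times in tumour 11, and in tumour 10 the ratio was 0.777 (fitted log2 fold change 1.36 ± 0.33).

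Abcc9 stood at 170.4, 118.6, 157.5, 51.6 and 37.6 CPM in CAF1, 272.2, 77.9, 171.1, 147.9 and 110.2 CPM in endothelial cells, and 26.1, 21.0, 24.9, 30.4 and 26.9 CPM in CAF2. CAF1 and endothelial libraries overlapped and both lay above every CAF2 library. The log2 fold change of CAF1 over CAF2 was 2.05 ± 0.27, with within-tumour ratios of 1.40 to 6.53. Both genes were thus present in CAF2 at levels that varied little between tumours, 65.5 ± 14.8 CPM for Kcnj8 and 25.9 ± 3.38 CPM for Abcc9 (SD, n = 5). In macrophages Kcnj8 had at most 3 counts in any library, and Abcc9 0.121 to 3.69 CPM.

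Although they are neighbours in the genome and partners in the channel, the 2 genes did not keep 1 ratio. Per kilobase, Kcnj8 made up 82.8 ± 2.05% of their sum in CAF1, 56.9 ± 15.0% in endothelial libraries and 89.0 ± 1.85% in CAF2. In endothelial libraries this share was 82.2% in tumour 8 and 43.1% to 55.8% in the other 4. The other genes for subunits of this channel family on the list of partners, Kcnj11 and Abcc8, had no row under these symbols in the count matrix.

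Cspg4 encodes NG2, a transmembrane proteoglycan of pericytes, smooth muscle and glial progenitors that also binds growth factors. It stood at 174.9, 109.4, 78.8, 72.7 and 24.1 CPM in CAF1, 31.4, 0.874, 34.3, 3.12 and 3.79 CPM in endothelial cells, and 2.90, 15.5, 12.2, 8.03 and 4.41 CPM in CAF2. CAF1 lay above CAF2 in every library (log2 3.35 ± 0.48), with within-tumour ratios of 5.47 to 60.4, while endothelial and CAF2 libraries overlapped. Among the macrophages it ranged from 0 to 15.0 CPM with a median of 3.11 CPM, and 12 of 15 libraries exceeded 3 counts. Its levels in CD206hi were 10.6, 10.8, 13.5, 3.11 and 1.15 CPM, in CD206neg 15.0, 0.927, 5.53, 3.11 and 6.65 CPM, and in CD206pos 1.97, 0, 6.36, 0 and 0.106 CPM. These levels overlapped with those of CAF2. Its relative Cspg5 did not pass between CAF1 and CAF2 (log2 2.03 ± 1.10, edgeR adjusted p = 0.239).

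Gja4 encodes a connexin of gap junctions, known from arterial endothelium as well as mural cells. It stood at 57.4, 31.4, 51.8, 11.8 and 11.5 CPM in CAF1 and 76.6, 95.0, 96.2, 89.5 and 101.7 CPM in endothelial cells. CAF2 had 2 counts in all, and none of the 15 macrophage libraries had any. Endothelial libraries lay above all CAF1 libraries, and at 91.8 ± 9.53 CPM (SD, n = 5) they had the smallest SD relative to the mean among the 9 genes. The ratio of CAF1 over CAF2 was 891.1, with an interval from counting error of 246.7 to 7358.5 that does not cover the spread between tumours.

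Other connexins of the vessel wall were measured as well. Gja1, the main connexin of many stromal cells, was lower in CAF1 than in CAF2 (log2 -1.17 ± 0.26, edgeR adjusted p = 0.00667), whereas Gjc1, a connexin of mural and smooth muscle cells, was higher (log2 1.88 ± 0.29, adjusted p = 0.000617). Per kilobase, Gja4 made up 40.6 ± 11.7% of its sum with Gja1 in CAF1, 33.9 ± 8.95% in endothelial libraries and 0.0504 ± 0.0741% in CAF2. These shares depend on the exon lengths used, 1685 bp for Gja4 and 10257 bp for Gja1. In CPM, Gja4 averaged 32.8 in CAF1 and 91.8 in endothelial cells, and Gja1 262.6 and 1175.9. Gja5, a connexin of arterial endothelium, averaged 1.53 ± 1.41 CPM in CAF1, 21.7 ± 8.79 CPM in endothelial cells and 0 CPM in CAF2, and was too low for the test between CAF1 and CAF2.

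Kcnmb1 encodes a beta subunit that raises the calcium sensitivity of the large-conductance potassium channel, whose pore is encoded by Kcnma1, and is best known from smooth muscle. It stood at 15.4, 15.6, 17.6, 4.83 and 3.30 CPM in CAF1, 8.19, 0, 16.8, 0.462 and 1.07 CPM in endothelial cells, and had no count in CAF2 or in macrophages. Against the limit of 3 counts over the CAF2 group (0.0580 CPM), it was at least 204.4-fold higher in CAF1. Kcnma1 itself, at 15.2, 14.8, 1.38, 25.7 and 17.3 CPM in CAF1 and 2.40, 4.79, 4.82, 4.85 and 1.44 CPM in CAF2, passed the test (log2 2.20 ± 0.61, edgeR adjusted p = 0.0241) but not with tumour as a block (0.100). Pore and beta subunit were not high in the same CAF1 libraries: tumour 8 had the most Kcnmb1 and the least Kcnma1. In endothelial cells Kcnma1 averaged 0.122 ± 0.174 CPM.

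Counted together, 8 of the 9 genes had every CAF1 library above every CAF2 library, an order that 5.61% of the 12149 genes tested showed. The exception was Kcnj8. Since the genes were chosen for this pattern, nothing is read from that count, nor from their median log2 fold change of 6.49, beside 0.01 for all genes tested. Kcnj8 (1.36) and Abcc9 (2.05) had the smallest fitted differences, Ndufa4l2 (3.32) and Cspg4 (3.35) followed, and the other 5 had at most 111 counts in the CAF2 group as a whole.

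Within CAF1, the libraries of tumours 10 and 11 held less of every one of the 9 genes than those of tumours 5, 6 and 8. This order, noticed after the values were seen, was shown by 30.7% of the genes tested. The highest CAF1 library exceeded the lowest by 4.40 times for Cox4i2 and by 9.37 times for Higd1b, the ends of the range. Summed over the 9 genes, CAF1 held 2167.4, 1657.1, 2013.5, 610.8 and 384.1 CPM, endothelial cells 921.8, 198.3, 1968.9, 393.8 and 368.7 CPM, and CAF2 113.6, 120.9, 108.1, 159.4 and 90.2 CPM. In CAF2 the sum did not follow the order seen in CAF1, since tumour 10 was highest there.

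Marker sums of several other cell types moved with this order in CAF1. The luminal epithelial sum was 1872.5, 1725.0, 801.3, 232.6 and 418.7 CPM, the myoepithelial sum (5 genes, led by Krt14) 4088.4, 485.4, 627.5, 84.3 and 122.2 CPM, and the smooth muscle sum (8 genes, led by Acta2) 3263.7, 2564.1, 5371.7, 2186.4 and 848.1 CPM. All 3 were lower in tumours 10 and 11, as were the endothelial and macrophage sums, which did not exceed 43.6 and 166.8 CPM. The largest means within these last sums were those of Emcn (16.1 CPM) and Cd14 (90.3 CPM). Pecam1 and Ptprc did not exceed 0.604 and 0.806 CPM in any CAF1 library, so these sums rest largely on single genes. The fibroblast sum, at 24811.6, 57198.8, 32670.3, 44283.6 and 107869.7 CPM, did not follow that order and was highest in tumour 11. Between the groups, 8 of 10 luminal genes and 4 of 5 myoepithelial genes passed as higher in CAF1 than in CAF2, and none as lower (edgeR adjusted p under 0.05). Of all genes tested, 10.9% were higher and 8.59% lower. Both marker lists were chosen with earlier results of these data known. The part of these other cell types in the result was not tested.

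Other genes of mural cells were set beside the 9. Of 24 on the list, 23 were in the matrix and tested between CAF1 and CAF2, where 19.5% of all genes passed (10.9% higher, 8.59% lower). Of these, 17 were higher in CAF1, 2 were lower and 4 did not pass, with a median log2 fold change of 2.51 beside 0.01 for all genes. This list and that of the partners were chosen with earlier results of these data known, so their counts are no independent evidence of a direction. Large differences were seen in Mcam, a cell adhesion molecule (8.01 ± 0.80), Tinagl1, a matricellular protein (7.62 ± 1.02), and the intermediate filament Des (6.65 ± 0.75), with edgeR adjusted p of 3.94e-05, 0.000247 and 8.20e-05. The junction protein Esam (7.50 ± 0.57) and the receptor Notch3 (5.33 ± 0.44) had edgeR adjusted p of 8.66e-06 and 1.16e-05. Mcam, Tinagl1 and Esam had higher means in endothelial cells (850.9, 251.4 and 1531.7 CPM) than in CAF1 (170.7, 93.2 and 62.4 CPM). The transcription factor Tbx2 (3.76 ± 0.32) and the guanylate cyclase subunit Gucy1b1 (3.47 ± 0.48) passed as well (edgeR adjusted p = 1.34e-05 and 0.000285). Pdgfrb, the receptor by which pericytes are recruited, averaged 551.6 ± 239.1 CPM in CAF1, 86.9 ± 104.7 CPM in endothelial cells and 102.1 ± 32.8 CPM in CAF2.

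Not every mural gene was higher in CAF1. Ebf1, a transcription factor of stromal and mural precursors, was lower (log2 -0.78 ± 0.16, edgeR adjusted p = 0.00362), and so was Tbx18, a transcription factor of mural and perivascular cells (-0.66 ± 0.21, adjusted p = 0.0489, and 0.0715 with tumour as a block). The membrane peptidases Anpep and Enpep, the amine oxidase Aoc3 and the metalloreductase Steap4 did not pass, with log2 fold changes of -0.17, -0.25, 0.46 and 0.28. In the list of partners and paralogues, 11 of 16 genes were tested: 5 were higher, 1 was lower (Gja1) and 5 did not pass, with a median of 1.88. Kcnj11, Abcc8, Kcnmb2 and Kcnmb4 of that list, and Atp13a5 of the mural list, had no row under these symbols in the count matrix.

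**Figure D3:**
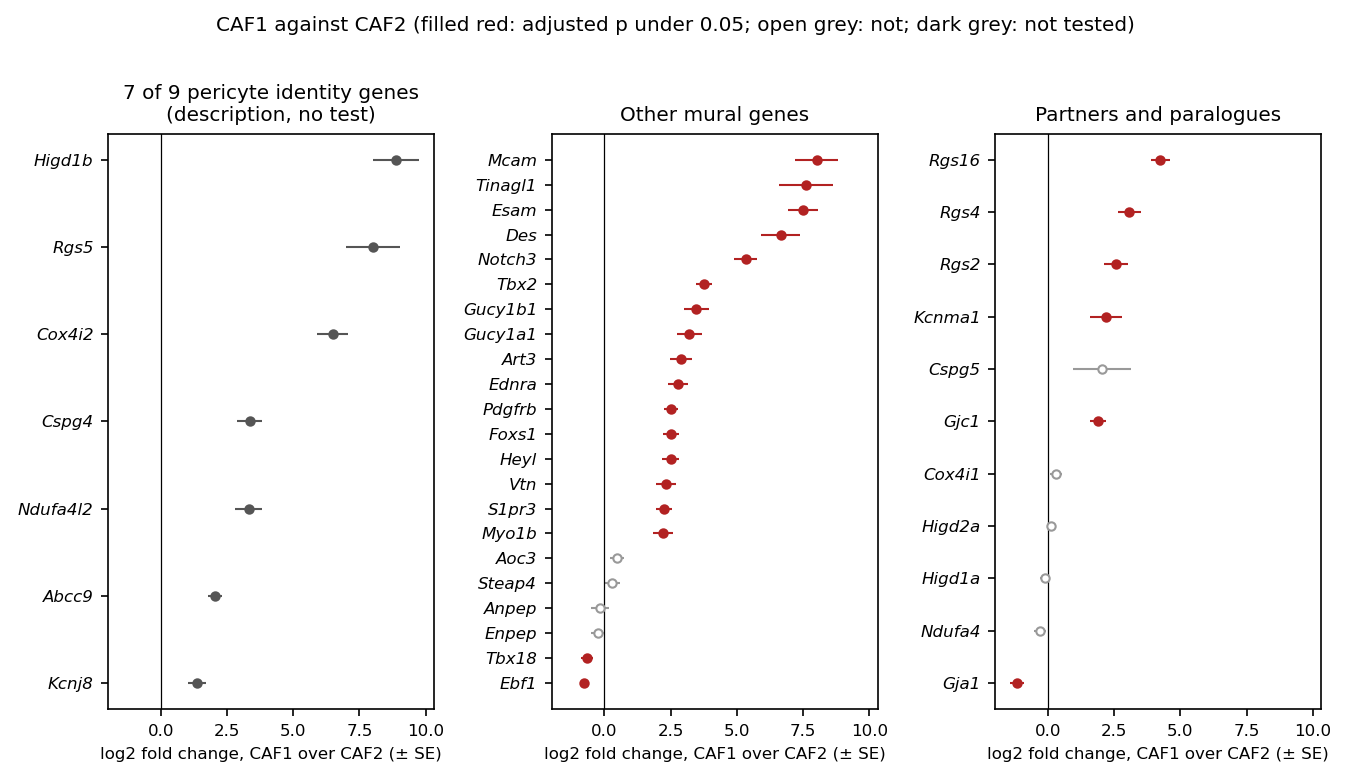
Fitted log2 fold change of CAF1 over CAF2 with its SE for 7 of the 9 pericyte identity genes (left, no test), 22 of 23 other mural genes tested (middle) and 11 partners and paralogues (right). Filled red points passed edgeR's test and open grey points did not. Gja4 and Kcnmb1 are left out because CAF2 held 2 and 0 counts of them. Of the genes that passed, Ebf1, Tbx18 and Gja1 lie below 0.

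For 7 of the 9 genes, all but Abcc9 and Gja4, the SD over the 5 endothelial libraries exceeded their mean, whereas in CAF1 the SD was below the mean for all 9. For 7 of the 9 genes the library of tumour 8 was the highest of the 5 endothelial libraries, an order that 43.5% of genes in the fit of all libraries showed, and for 8 of the 9 that of tumour 6 was the lowest, as for 30.8% of genes. Gja4 was the exception to both, and Abcc9 was highest in tumour 5. As a percentage of the CAF1 library of the same tumour, the 7 genes without Abcc9 and Gja4 had a median of 30.2% in tumour 5, 0.798% in tumour 6, 80.0% in tumour 8, 21.4% in tumour 10 and 35.6% in tumour 11. Within a tumour the 7 genes spread from 43.6% (Cspg4) to 148.2% (Higd1b) in tumour 8, and from 0% (Kcnmb1) to 10.7% (Kcnj8) in tumour 6. Cspg4 was the lowest of the 7 in tumours 5, 8, 10 and 11. Gja4 stood at 133.4% to 884.0% of CAF1 and Abcc9 at 65.7% to 293.4%.

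Markers of other cells were set beside these percentages. The fibroblast sum of the endothelial library was 1.91%, 0.192%, 2.01%, 0.116% and 0.242% of that of CAF1, below the percentage of each of the 7 genes in tumours 5, 8, 10 and 11 and of 6 of the 7 in tumour 6. The luminal epithelial sum was 42.5%, 152.0%, 156.3%, 94.1% and 505.3% of CAF1, with tumour 11 highest. Smooth muscle markers summed to 785.0, 196.3, 2182.2, 403.8 and 368.1 CPM in the endothelial libraries, highest in tumour 8 and lowest in tumour 6 like most of the 9 genes. The endothelial sum itself was lowest in tumour 8, at 3117.1 CPM, beside 6243.5 to 6875.0 CPM in the other 4. Their part in the result was not tested.

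**Figure D4:**
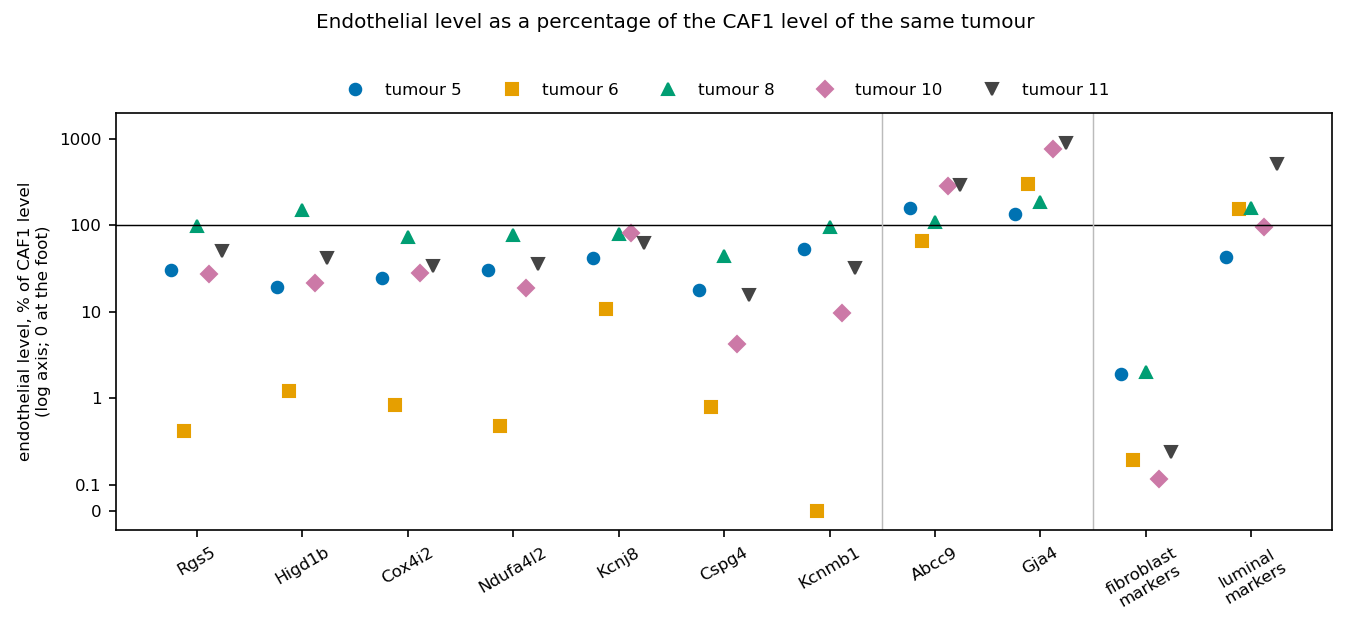
Level in the endothelial library as a percentage of the level in the CAF1 library of the same tumour, on a log axis with 0 at the foot. Each symbol is 1 tumour, for 7 genes at the left, Abcc9 and Gja4 in the middle, and the summed fibroblast and luminal epithelial markers at the right. Levels are CPM on library totals, and the line marks 100%. The fibroblast sums stay at or below 2.01%, while the medians of the 7 genes run from 0.798% in tumour 6 to 80.0% in tumour 8.

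Endothelial cells exceeded CAF2 by their fitted values for most of the 9 genes. These values are a description with no test, since low CAF2 levels were part of the choice of the genes. In the fit of 30 libraries 46% of 13610 genes passed between these groups, 23.7% higher and 22.3% lower in endothelial cells, and nothing is read from that share for the 9. Higd1b had a log2 fold change of 7.31 ± 1.14, Rgs5 of 6.34 ± 1.02, Cox4i2 of 4.33 ± 0.86 and Abcc9 of 2.19 ± 0.35. Gja4 had 4117 counts in endothelial cells and 2 in CAF2, and Kcnmb1, with 267 counts in endothelial cells and none in CAF2, was at least 102.7-fold higher. Higd1b, Abcc9 and Gja4 had every endothelial library above every CAF2 library, as 26.6% of all genes did. For Higd1b this rests on 15 counts in the endothelial library of tumour 6 beside 12 in CAF2.

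For the genes with the most counts in CAF2 other than Abcc9, the fitted differences were smaller and depended on the libraries used. Ndufa4l2 had a log2 fold change of 1.26 ± 0.66, Cspg4 of 0.27 ± 0.76 and Kcnj8 of -0.02 ± 0.46. Without the endothelial libraries of tumours 5 and 8 together, the values were -0.95 for Ndufa4l2, -2.13 for Cspg4 and -1.27 for Kcnj8, so that all 3 were negative. Without the endothelial library of tumour 6, Ndufa4l2 had 1.58. These fits used TMM factors, which were 1.27 to 1.67 for endothelial libraries. Scaling by library totals moved the median of all genes by 0.39 on the log2 scale and the share of higher genes among the calls from 51.6% to 70.6%, and put Ndufa4l2 at 1.77 and Kcnj8 at 0.46.

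Against the 3 macrophage groups together, Rgs5, Ndufa4l2, Kcnj8 and Abcc9 passed as higher in endothelial cells and Cspg4 did not pass. In this comparison 61.3% of all genes passed, 36.5% higher and 24.7% lower. Cox4i2 and Kcnmb1 met the filter on low counts only through CAF1 and are given no test. Without CAF1, Higd1b and Gja4 met it only with the endothelial libraries, the high side here, and are given no test either. Ndufa4l2 and Kcnj8, at no more than 1.01 CPM in any macrophage library, met it through the other populations. Nothing is read from how many genes passed. Each tested gene was also lower in every macrophage library than in CAF1. The choice of the genes may therefore bear on these tests as well, and their p values are no independent evidence. Rgs5 (log2 8.58 ± 0.74), Ndufa4l2 (7.28 ± 0.66) and Abcc9 (5.77 ± 0.28) had edgeR adjusted p values of 2.58e-11, 8.40e-11 and 4.60e-17. For Kcnj8, with at most 3 counts in a macrophage library, the edgeR adjusted p value was 1.66e-15. Rgs5, Ndufa4l2, Kcnj8 and Abcc9 passed in every alternative. Higd1b had a log2 fold change of 7.97 ± 0.80, and Gja4, with no count in macrophages, was at least 3965.9-fold higher. Kcnmb1 was at least 257.2-fold higher, and Cox4i2 had a log2 fold change of 3.16 ± 0.56, which was 1.24 without the endothelial libraries of tumours 5 and 8.

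Cspg4 did not pass between endothelial cells and macrophages (log2 1.05 ± 0.61, edgeR adjusted p = 0.134), while it passed without the CD206pos library of tumour 8 (1.51, adjusted p = 0.0321) and had -1.33 without the endothelial libraries of tumours 5 and 8. Rgs5, Higd1b, Kcnj8, Abcc9 and Gja4 had every endothelial library above every macrophage library, which 25.7% of all genes showed. Scaling by library totals moved the median of all genes by 0.72 in this comparison and the share of higher genes among the calls from 59.7% to 82.9%, and Cspg4 then passed (1.75, adjusted p = 0.0175). Macrophage markers, 8 genes, summed to 207.9 to 585.2 CPM in endothelial libraries and 24895.0 to 60333.6 CPM in macrophages. Most of the sum in endothelial libraries was Cd14, at 190.3 to 537.9 CPM. Adgre1 and Ptprc did not exceed 0.593 and 0.462 CPM there.

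Levels of different genes can be compared per kilobase of exon (GENCODE M21). The length used is that of all annotated exons of a gene merged, which can exceed that of its transcripts. Levels and shares per kilobase depend on it. In CAF1 the mean level per kilobase was 145.3 ± 90.4 CPM for Rgs5, 144.9 ± 97.0 CPM for Higd1b, 140.3 ± 76.9 CPM for Ndufa4l2 and 65.5 ± 42.9 CPM for Kcnj8. The other 5 lay lower, at 24.8 ± 14.8 CPM for Cox4i2, 19.5 ± 12.8 for Gja4, 12.8 ± 7.21 for Abcc9, 7.71 ± 4.65 for Cspg4 and 2.71 ± 1.60 for Kcnmb1 (SD, n = 5). The ranges of neighbours in this order overlapped. Endothelial cells had another order by their means, led by Higd1b at 70.6 ± 115.1 CPM per kilobase, Rgs5 at 64.6 ± 89.5 and Gja4 at 54.5 ± 5.66 CPM per kilobase, of which Gja4 had the smallest SD.

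Other genes were ranked by how near their profiles over the 30 libraries lay to the median profile of the 9. The measure was the root mean square difference of centred log2(CPM + 1) values, with CPM here on library totals scaled by TMM factors. Ranked were 9831 other genes with a mean of at least 10 CPM in their highest group. Among the nearest 10 were Serpina1b (0.56), Trpc6 (0.64), Des (0.65), Itga7 (0.66), Olfr558 (0.66), Ppp1r14a (0.71), Atp1b2 (0.72), Tbx2 (0.74) and Gucy1a1 (0.74), where the median of all ranked genes was 2.24. Des, Tbx2 and Gucy1a1 were also on the mural list. Itga7 is a laminin-binding integrin of muscle and vessel walls, and Ppp1r14a an inhibitor of myosin phosphatase. Serpina1b, a serine protease inhibitor with near-identical copies among which reads can be divided, averaged 53.0 ± 41.7 CPM in CAF1, 21.9 ± 21.6 CPM in endothelial cells and 0.334 CPM in CAF2. The 9 genes themselves lay at 0.78 (Higd1b) to 1.68 (Kcnj8) from their median profile, which they define. With the authors' normalised values in place of CPM, 6 of the 10 genes remained among the nearest 10.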

How the data were processed

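RNA of 6 sorted populations from each of 5 tumours was sequenced after SMARTseq v4 amplification, in libraries pooled over 3 lanes, per the labels' protocols. Per the submitters' processing notes, the authors used the build mm10 with HISAT2 2.0.4, Trimmomatic 0.36, SAMtools 1.3.1 and DESeq2 1.26. Which tool and annotation produced the counts, and with what strand setting, is not stated in those notes. The authors deposited raw counts of reads for each Entrez gene. They also deposited a normalised signal, which is linear and equals the counts divided by 1 size factor per library (a relative spread of at most 1.3e-09 over all genes). Of its 14118 genes, whose totals start at 72 counts, 14104 had a symbol.

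CPM were computed on library totals, with SD over the 5 tumours. The fits used R 4.3.3 and edgeR 4.0.16 with limma 3.58.1: filterByExpr, TMM factors (0.547 to 1.67), the quasi-likelihood F test and a Benjamini-Hochberg adjusted p under 0.05 across the whole table. CAF1 and CAF2 were fitted alone (10 libraries, 12149 genes, biological coefficient of variation 0.337), and endothelial contrasts in all 30 libraries (13610 genes, 0.387). The 3 macrophage groups were averaged on the log2 scale. A gene with no count on 1 side has its fold as a lower bound at 3 counts over that side, and one with 1 to 3 counts has a ratio with its counting interval. No fitted fold change is given where no library of 1 side exceeds 3 counts.

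Populations of 1 tumour share an animal, which pairs the libraries by tumour. The correlation of same-tumour deviations from group means lay between 0.0205 and 0.381 in the CAF fit and between 0.0213 and 0.574 over all 30 libraries. The fits carry no block, and the value with tumour as a block stands beside a result whose call it changes. Alternatives were that block, DESeq2 1.42.0, factors by RLE, leaving genes unfiltered, requiring 50 counts in 5 libraries, a robust fit and each library left out. Added after the data were seen were each tumour left out, the endothelial libraries of tumours 5 and 8 left out, and library totals without TMM.

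The tests planned for the 9 genes between endothelial cells and CAF2, and of Cox4i2 and Kcnmb1 between endothelial cells and macrophages, are not used, since the choice of the genes bears on them. Those of Higd1b and Gja4 between endothelial cells and macrophages are not used either. Without CAF1, these genes met the filter only with the endothelial libraries. The 9 genes, the mural and partner lists and the marker lists were chosen with earlier results of these data known. Named genes are the 9, the genes of the mural and partner lists with the 8 largest differences in each direction together with Pdgfrb, Kcnma1, Gja1 and the 3 widely expressed paralogues whatever their result, and the 10 genes nearest in profile, of which 1 mural gene is not reported here. Genes that did not pass are named to complete a count. Promoter motifs were chosen after the sequences were seen. Tested on simulated data holding 100 genes with a 2-fold and 100 with a 4-fold change, edgeR found 51%, 38% and 57% of the first and 95%, 88% and 95% of the second for CAF1 against CAF2, endothelial cells against CAF2 and endothelial cells against macrophages, with 2.01%, 3.82% and 3.8% false among its calls. DESeq2 had 20.93%, 11.88% and 11.41% false. The changed genes were well counted and all others had 1 level in all groups. These shares therefore do not carry over to low genes or to comparisons where many genes differ.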

Additional observations from a re-analysis of the deposited data

Results flagged for a closer look

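Sets of 5 libraries of 1 gene and group numbered 41. In 8 of them the highest library lay apart from the other 4 by more than Dixon's limit. Chance gives this in about 1 set in 20 for normally distributed values, a rate that does not carry over to sets of few counts. Of the 8, 5 were libraries of tumour 6. In CAF2 they were Rgs5 at 8.99 CPM (77 counts) and Higd1b at 1.40 CPM (12 counts). In CD206hi it was Rgs5 at 1.12 CPM (8 counts). Higd1b stood at 0.795 CPM in CD206neg (6 counts) and 0.636 CPM in CD206pos (4 counts). In the same 4 libraries the luminal epithelial markers summed to 479.7 CPM (CAF2), 364.7 CPM (CD206hi), 573.0 CPM (CD206neg) and 371.9 CPM (CD206pos), each the highest of its group. Their part in the result was not tested. The endothelial library of tumour 8 stood apart for Higd1b, at 231.8 CPM, and for Cox4i2, at 21.7 CPM. Ndufa4l2 stood at 1.01 CPM (10 counts) in the CD206neg library of tumour 5.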

How the results depend on the processing

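The counts of genes called kept within 1.5 times their value under every alternative: 2370 genes between CAF1 and CAF2 (1663 to 2390 with a library or tumour left out), 19 mural genes (18 to 19), 6 partner genes (5 to 6), 6259 genes between endothelial cells and CAF2 (5020 to 6534) and 8337 between endothelial cells and macrophages (7367 to 8522). With tumour as a replicate block the pairing gave 2445, 18, 5, 7055 and 8870, and among the genes named it ended the calls of Kcnma1 and Tbx18 and no others. Library totals gave 5906 calls between endothelial cells and CAF2 (4167 higher, 1739 lower) and 9878 between endothelial cells and macrophages (8187 higher, 1691 lower).

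Directions of fitted values turned in 5 cases. Kcnj8 between endothelial cells and CAF2 ran from -0.70 (endothelial tumour 8) to 0.23 (endothelial tumour 6) on the log2 scale with each library left out, and had 0.29, 0.20 and 0.12 without tumours 6, 10 and 11 and 0.46 with library totals. Cspg4 ran from -0.27 (endothelial tumour 5) to 0.66 (CAF2 tumour 6), with -0.24 without the endothelial library of tumour 8 and with the block, -0.57 and -0.09 without tumours 5 and 8, and -2.13 without both endothelial libraries. That last setting gave -0.95 for Ndufa4l2 against CAF2 and -1.33 for Cspg4 against macrophages. Higd1a between CAF1 and CAF2 ran from -0.22 to 0.01 (CAF1 tumours 8 and 11 left out). Tbx18 lost its call in 16 of 22 alternatives and Kcnma1 in 9. The causes were not tested. Of the 10 genes nearest in profile, 6 or 7 remained under other values or another pseudocount. The depth allows no statement on Higd1b, Gja4 or Kcnmb1 in CAF2 below 3 counts a library.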
